A study of Mus musculus with 18 samples.

Results

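The hearts of young wild-type mice were compared with kidney and liver of the same strain and diet, to describe which genes set the heart apart at 7 weeks of life. All mice were wild-type C57BL/6J, an inbred laboratory strain, and ate standard chow from 4 weeks of age for the same 21 days for which other mice of the study ate a ketogenic diet. The members were the 9 chow libraries of the 18 in the series: 3 of heart, 3 of kidney and 3 of liver. The labels call them biological replicates but do not say whether replicate 1 of heart and replicate 1 of kidney came from 1 mouse, so the p-values measure the spread between these libraries, and the sex of the mice was not given. Whole organs or unspecified pieces of them were used, so each value is an average over all cell types of the sample.

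Every library listed estimated counts for 22609 gene symbols, with totals from 17440795 to 22767878 in heart and from 17198629 to 23835383 over all 9 libraries. The organ labels were checked against marker genes. Myh6, the alpha myosin heavy chain, was at 29180, 32484 and 29581 CPM in the hearts (counts scaled to the effective library size), at 0.651 to 1.58 CPM in the kidneys and at 0 counts in the livers. The 15 genes of hepatocytes, albumin among them, summed to 18.3 to 18.7% of all TPM (counts scaled to exon length and library size) in the livers and to 0.00133 to 0.00529% in the hearts. The 15 genes of kidney tubules and glomeruli summed to 4.72 to 5.0% in the kidneys and to at most 0.00165% in the hearts. Heart replicates 1 and 2 differed little, with a median chi-square per gene of 1.23 over 13377 genes. Heart replicate 3 stood apart from both, with medians of 4.11 and 3.78. It held atrial and fat transcripts that the other hearts lacked or held at far lower levels. These are described at the end with the named genes whose calls changed without this library.

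The heart beats without pause, and its muscle cells are built for this in 3 ways that are known in outline. Sarcomeres, the repeating units of thick myosin and thin actin filaments, shorten when calcium is released from the sarcoplasmic reticulum and relax when a pump returns it. Ion channels and gap junctions spread the electrical signal that triggers each release. Mitochondria fill much of the cell and burn mainly fatty acids after birth, with lactate, glucose and ketone bodies as further fuels. A small circle of transcription factors, among them Nkx2-5, Gata4, Tbx5, Tbx20, Mef2 proteins and serum response factor, binds short motifs near many of the genes involved.

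Promoter stretches of 6 heart genes are shown because these genes are among the most heart-restricted contractile or hormone genes below, or, for Myl7, the gene that separated heart replicate 3. They were chosen after their values and motif matches were seen. Each is the 250 bases before a transcription start in RefSeq (build GRCm38.p6), read 5′ to 3′ on the strand of the gene. Capitals mark the motif matches: the MEF2 site, the CArG box bound by serum response factor, TATAAA (gene strand only), CATTCC (bound by TEAD factors), AGATAA (bound by GATA factors) and CAGCTG (an E box), all but TATAAA searched on both strands. Actc1, cardiac alpha actin, is at chr2:114052876-114053125 on the minus strand, with a CArG box 47 bases before the start.
Actc1: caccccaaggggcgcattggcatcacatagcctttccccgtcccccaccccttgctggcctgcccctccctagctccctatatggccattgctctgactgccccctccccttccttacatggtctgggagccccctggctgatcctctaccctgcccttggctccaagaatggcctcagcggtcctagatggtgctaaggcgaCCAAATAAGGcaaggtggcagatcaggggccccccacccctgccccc
Myl3, the ventricular essential myosin light chain, is at chr9:110763428-110763677 on the plus strand, with a CArG box 85 bases and CATTCC matches 177 and 149 bases before the start.
Myl3: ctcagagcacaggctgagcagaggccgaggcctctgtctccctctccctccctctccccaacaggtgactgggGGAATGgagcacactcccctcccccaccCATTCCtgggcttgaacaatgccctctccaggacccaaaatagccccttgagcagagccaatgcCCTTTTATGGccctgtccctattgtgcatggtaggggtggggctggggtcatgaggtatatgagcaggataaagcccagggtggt
Tnnt2, cardiac troponin T, is at chr1:135836084-135836333 on the plus strand, with CATTCC at 27, AGATAA at 166 and CAGCTG at 223 and 157 bases before the start. A second start listed for Tnnt2 (window chr1:135836739-135836988, not printed) had none of these motifs in its 250 bases.
Tnnt2: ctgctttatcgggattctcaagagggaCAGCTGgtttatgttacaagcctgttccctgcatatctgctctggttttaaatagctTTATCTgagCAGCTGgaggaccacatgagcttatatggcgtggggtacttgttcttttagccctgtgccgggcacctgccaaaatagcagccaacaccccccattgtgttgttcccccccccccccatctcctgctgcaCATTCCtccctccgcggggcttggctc
Myoz2, a Z disc protein that binds calcineurin, is at chr3:123034988-123035237 on the minus strand, with a MEF2 site at 33 and CAGCTG at 12 bases before the start.
Myoz2: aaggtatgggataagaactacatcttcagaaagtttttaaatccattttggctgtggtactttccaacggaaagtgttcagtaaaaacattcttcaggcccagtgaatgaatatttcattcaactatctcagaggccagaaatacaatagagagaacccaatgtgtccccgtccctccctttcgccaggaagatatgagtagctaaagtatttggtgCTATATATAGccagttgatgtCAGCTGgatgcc
Nppb, which encodes brain natriuretic peptide, is at chr4:147985650-147985899 on the plus strand, with TATAAA at 31, AGATAA at 84, CAGCTG at 99 and CATTCC at 105 bases before the start.
Nppb: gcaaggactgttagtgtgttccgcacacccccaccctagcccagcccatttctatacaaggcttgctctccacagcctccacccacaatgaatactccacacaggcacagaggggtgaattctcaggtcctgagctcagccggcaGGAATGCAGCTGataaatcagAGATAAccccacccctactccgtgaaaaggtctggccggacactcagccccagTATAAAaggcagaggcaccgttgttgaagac
Myl7, the atrial regulatory myosin light chain, is at chr11:5898783-5899032 on the minus strand, with a CArG box at 61 and CATTCC at 70 bases before the start.
Myl7: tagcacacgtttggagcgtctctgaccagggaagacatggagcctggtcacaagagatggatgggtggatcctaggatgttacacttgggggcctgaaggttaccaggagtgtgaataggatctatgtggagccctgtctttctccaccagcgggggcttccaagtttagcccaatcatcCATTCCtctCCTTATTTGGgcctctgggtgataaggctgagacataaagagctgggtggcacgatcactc
Among all 32851 windows of 300 bases in the table, 3.19% held a MEF2 site, 1.63% a CArG box, 8.32% TATAAA, 14.7% CATTCC, 11.2% AGATAA and 16.3% CAGCTG. A match describes the letters and is neither a binding site nor a cause. Only 73.4% of the heart genes counted next (772 of 1052) had a window in the table, so a comparison of motif shares between gene sets was void and is not given.

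The heart differed from the other organs in most genes that could be tested. Of 15171 genes, 5747 (37.9%) were higher in heart than the mean of the kidney and liver log2 levels and 5621 (37.1%) were lower, at an adjusted p under 0.05 in edgeR's quasi-likelihood test. A gene that passed is said below to be higher or lower, and numbers for groups of genes are read against these shares. Against kidney alone, 5255 genes (34.6%) were higher and 5725 (37.7%) lower, and against liver alone 6074 (40.0%) were higher and 5686 (37.5%) lower. These splits turned on the scaling: with total counts in place of TMM, 31.2% of the calls against kidney were higher instead of 47.9%, and 70.3% of those against liver instead of 51.7%. In bulk tissue, more cells of a type and more RNA per cell cannot be told apart.

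A stricter count kept genes that were higher than in kidney and higher than in liver, each by at least 4-fold. It held 1052 genes (6.93%), and its mirror, lower than both, held 958 (6.31%). The heart libraries did not overlap those of kidney and liver for 1048 of the 1052 and 942 of the 958. This follows largely from the 4-fold rule applied to the same libraries, so it adds no support. The share without overlap over all genes was not computed. The 1052 genes held 28.3 to 30.6% of all TPM in the hearts, 1.60 to 1.83% in the kidneys and 0.563 to 0.573% in the livers. Of these, 40 had no count in any kidney or liver library, 273 averaged 100 TPM or more in heart, and 491 had fractional values from reads shared with other genes or places, which makes them less certain. Without heart replicate 3 the 2 numbers were 1041 and 1051, of which 996 and 915 were shared with the full set. Contrasts with the mean alone were less selective: 2036 genes above the mean were not higher than both organs, and 1782 genes lay between the organs, higher than one and lower than the other.

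**Figure D1:**
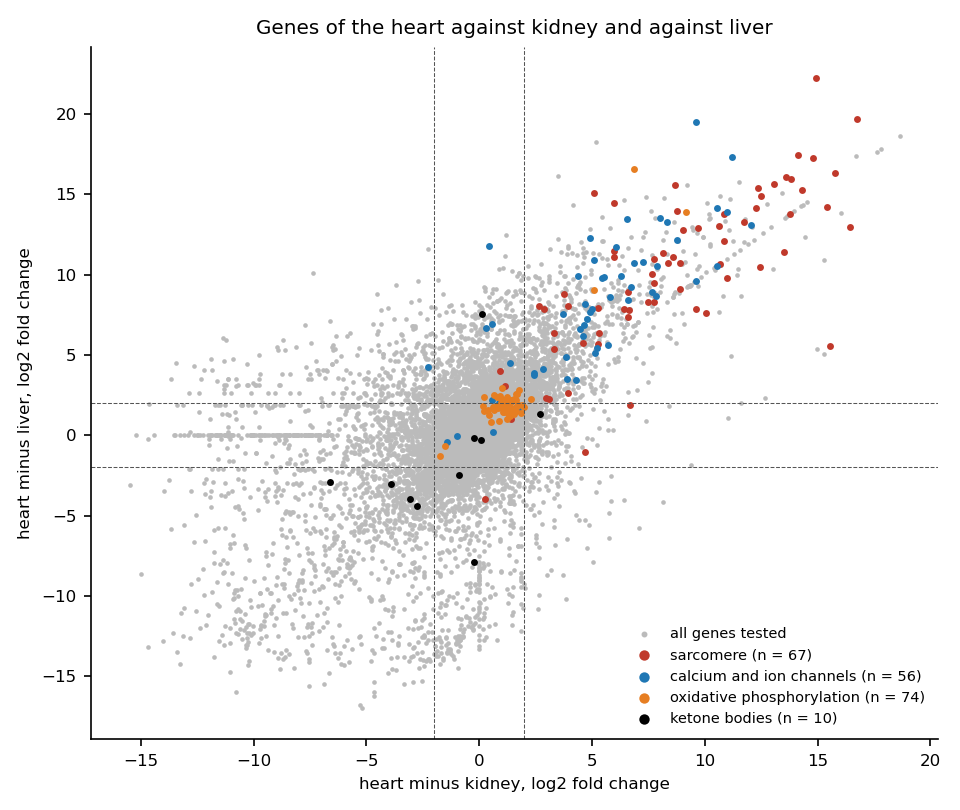
Log2 fold change of heart against kidney (x axis) and of heart against liver (y axis) for the 15171 tested genes, 1 point a gene, with 4 groups of genes in colour and dashed lines at 2 and -2. Sarcomere, calcium and channel genes spread toward the upper right, oxidative phosphorylation genes sit in a tight cluster a little above 0 on both axes, and ketone body genes scatter mostly on the lower side. Both axes share the heart libraries, and fold changes of genes with 0 counts in an organ depend on the fit's small prior count.

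Contractile genes stood furthest from the other organs. All 18 tested genes of the thick filament and M band were higher in heart (37.9% of all genes were), 17 of them by 4-fold over both organs (6.93%), with a median log2 difference of 11.34 against -0.03 over all genes, or 10.49 with genes at 0 counts set to a bound. They held 3.88 to 5.32% of heart TPM, at most 0.00361% of kidney TPM and at most 0.000428% of liver TPM. All 15 thin filament and troponin genes were higher as well, 13 of them over both organs, with a median of 9.36. Of 34 Z disc and costamere genes, which anchor the filaments to each other and to the membrane, 33 were higher and 31 higher than both, with a median of 8.78 (8.30 with the bound). The counts for the thick and thin filament genes were the same without heart replicate 3.

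Myl2, the ventricular regulatory light chain that tunes the force of myosin, had the highest mean heart TPM of the 1052 genes, and in CPM, which is not scaled to gene length, it was at 6276, 5930 and 3701 in the hearts. The kidneys held 3 counts of it in all and the livers none, so the heart level was at least 82369-fold that of liver and 122333-fold that of kidney (95% counting interval 41860 to 593202). Heart replicate 3 was the lowest heart, and no heart came near a kidney or liver. Myl3 followed the same order, at 5654, 5534 and 3523 CPM against at most 0.366 in any other library. Myh6, the fast myosin motor of the rodent heart, was 30971-fold higher than in kidney, where 70 counts were seen, and at least 486574-fold higher than in liver. Myh7, the slow motor of fetal and stressed hearts, lies next to it on chromosome 14 (mm9, chr14:55560758-55585444 for Myh6 and chr14:55589525-55613386 for Myh7, both on the minus strand). Myh7 was at 713, 947 and 941 CPM, so Myh6 made up 97.6, 97.2 and 96.9% of the TPM of the pair in the 3 hearts.

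On the thin filament, Actc1 was at 11608, 12146 and 8203 CPM in the hearts, between 0.0853 and 0.341 CPM in the kidneys and at most 0.296 CPM in the livers. The 3 hearts were far above every other library. Tnnt2, which ties the troponin complex to tropomyosin, was the steadiest of the abundant genes, at 3560, 3576 and 3612 CPM, 21372-fold over kidney and 43171-fold over liver (log2 difference from the mean 14.81 ± 0.16 SE, adjusted p = 1.54e-12, edgeR's quasi-likelihood test). Tnni3, the inhibitory troponin subunit, was at 3620, 3649 and 3322 CPM and Tnnc1, its calcium-binding partner, at 1973, 1914 and 1555 CPM. Tpm1, a tropomyosin that other cells also make, was at 7895, 7632 and 6169 CPM in the hearts and still present in kidney (69.2 to 86.9 CPM) and liver (40.8 to 47.3 CPM). Its fold over kidney, 94.3, was accordingly far below that of the troponins. Actc1 held 97.7, 96.9 and 97.7% of the TPM it shared with Acta1, the skeletal actin, though reads of such similar genes can be split between them. Nebulin (Neb), a ruler of skeletal thin filaments, was the exception: it was at 21.5, 13.1 and 35.8 CPM in the hearts and 34.8 to 66.8 CPM in the livers, above kidney but lower than liver (log2 fold change -1.01, adjusted p = 0.0383).

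Titin (Ttn), the giant spring that spans from Z disc to M band, took 54149, 59693 and 48888 CPM of the hearts, a count that grows with its length, while its mean of 1161 TPM per length gave it rank 113. Mybpc3, a brake on myosin that is often mutated in inherited cardiomyopathy, was at 3311, 3717 and 2295 CPM against at most 0.299 CPM elsewhere. The hearts of both genes stood clear of all other libraries. At the Z disc, Myoz2 was at 1027, 1076 and 840 CPM, with 2 counts in the kidneys and none in the livers. Tcap, the titin cap, was at 422, 579 and 678 CPM and Lmod2, which lengthens thin filaments, at 426, 469 and 382 CPM. Csrp3, the muscle LIM protein, was not confined to heart: it was at 1016, 1039 and 906 CPM in the hearts and 1 count in the kidneys, but the livers held 19.8, 20.7 and 21.9 CPM, a 47.0-fold difference. Fhl2, another LIM protein, had the opposite order, with 23.5 to 29.7 CPM in the kidneys (60.5-fold below heart) and at most 0.829 CPM in the livers. Sntb1, a syntrophin of the dystrophin complex, was the 1 member of the Z disc and costamere genes that was lower in heart (-1.88).

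**Figure D2:**
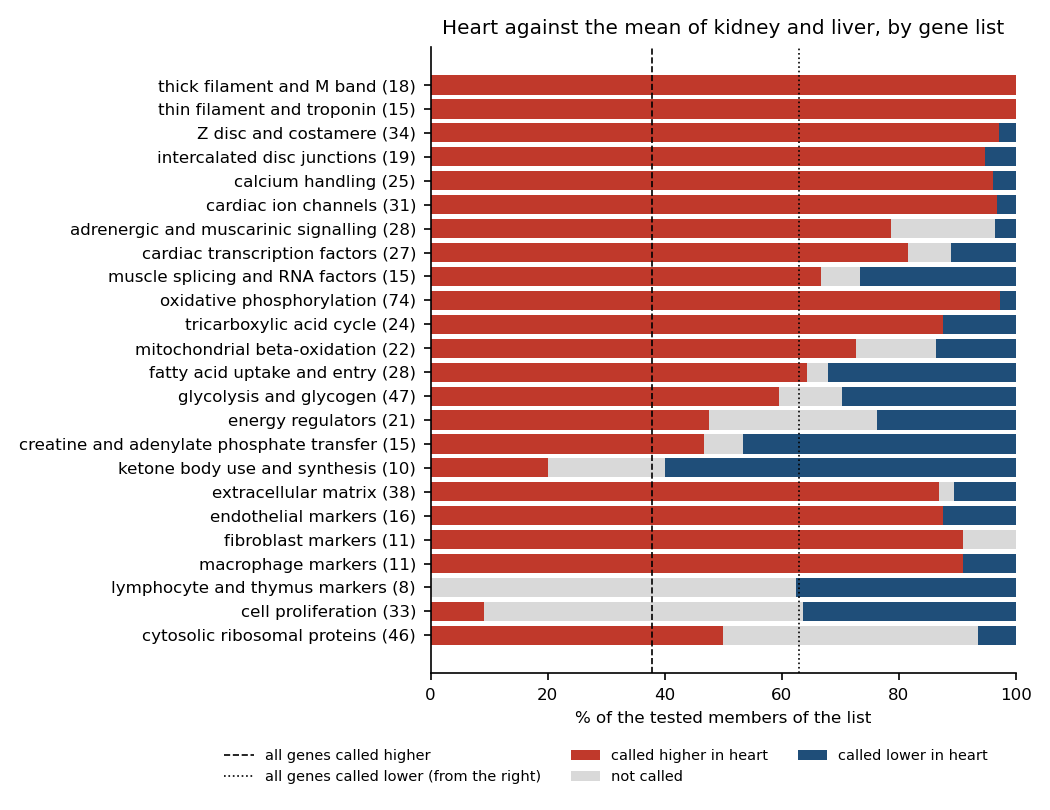
Share of the tested members of 24 gene lists that were higher (red), lower (blue) or not called (grey) in heart against the mean of kidney and liver, with the number tested in brackets; the dashed and dotted lines mark the shares over all genes, 37.9% higher and 37.1% lower. The contractile, calcium, channel and oxidative phosphorylation lists are nearly all red, while ketone body genes are mostly blue and proliferation and ribosomal genes hold much grey.

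Most genes that cycle calcium were higher too. Of 25 tested genes 24 were higher in heart and 19 were 4-fold over both organs, with a median of 6.00. Atp2a2 encodes the pump that refills the sarcoplasmic reticulum. It was at 21326, 20945 and 19318 CPM in the hearts, 364 to 444 CPM in the kidneys and 392.6 to 471 CPM in the livers. The hearts were thus about equally far above both organs, by 51.7-fold and 48.2-fold. Its inhibitor phospholamban (Pln) was more restricted, at 4999, 4620 and 3454 CPM in the hearts, 1.02 to 3.41 CPM in the kidneys and 1 count in the livers. Ryr2, the release channel, was at 4825, 4968 and 4375 CPM, 768-fold over kidney and at least 75201-fold over liver. Casq2, which buffers calcium inside the store, was at 1264, 1198 and 984 CPM against at most 0.468 CPM elsewhere.

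Slc8a1 and Sri departed from that pattern. Slc8a1, the sodium and calcium exchanger of the plasma membrane, was at 936, 921 and 794 CPM in the hearts and 516 to 676 CPM in the kidneys, 1.46-fold apart, but only 6.38 to 7.69 CPM in the livers. Heart and kidney did not overlap, and the difference passed (adjusted p = 0.00219, edgeR's quasi-likelihood test). Sorcin (Sri), a calcium-binding regulator of the release channel, was lower in heart than the mean (-0.52), since it was at 36.9 to 43.1 CPM in the hearts against 76.2 to 82.3 CPM in the kidneys and did not differ detectably from liver (log2 fold change -0.05 ± 0.09 SE, adjusted p = 0.638).

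Of 31 tested cardiac ion channel genes 30 were higher in heart, 23 of them over both organs, with a median of 7.16 (6.49 with the bound). Kcnk3, a leak potassium channel, was at 391.9, 417 and 405 CPM in the hearts, 96.1-fold over kidney and 354-fold over liver. Kcnj3, part of the acetylcholine-gated potassium channel of atria, was at 46.6, 45.3 and 200 CPM, so the higher level came from replicate 3. Trpm7, a broadly made channel kinase, was the 1 lower member (-0.92). Gja1, the main gap junction protein of ventricles, was at 892, 894 and 683 CPM against at most 10.3 CPM elsewhere. With it, 18 of 19 intercalated disc genes were higher, though only 9 were 4-fold over both organs. Epithelia, too, build desmosomes and adherens junctions. Cxadr, the coxsackievirus and adenovirus receptor, was lower than the mean (-0.71): it was at 56.8 to 74.2 CPM in the hearts, above the kidneys (40.2 to 46.3 CPM) and below the livers (252 to 293 CPM).

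Receptors of the autonomic nerves were measured at lower levels. Among 28 tested genes of adrenergic and muscarinic signalling 22 were higher, 1 lower and 5 not called, with a median of 1.77. Adrb1, the main beta receptor of cardiac muscle, was at 29.3, 36.3 and 34.7 CPM in the hearts, 2.82 to 4.72 CPM in the kidneys and 1.80 to 2.55 CPM in the livers. Chrm2, the muscarinic receptor that slows the heart, was at 98.0, 102.6 and 150 CPM against at most 0.0813 CPM elsewhere. Both receptors separated the organs in every library. Adra2b, an alpha receptor, was lower (-4.86).

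Of 27 tested transcription factors of the heart 22 were higher and 13 were 4-fold over both organs, with a median of 3.27. Nkx2-5, the homeobox factor that marks heart muscle from early in development, was at 78.6, 81.0 and 82.2 CPM in the hearts and at 0 counts in all 6 other libraries. That is at least 1925-fold over kidney and at least 1296-fold over liver. Tbx20 and Hand2 were at 0 counts in the kidneys only: Tbx20 was at 210, 233 and 297 CPM in the hearts and 6.46 to 8.23 CPM in the livers, and Hand2 at 40.4, 40.2 and 43.3 CPM in the hearts and 6.60 to 9.06 CPM in the livers. Gata4 was at 142, 163 and 148 CPM in the hearts and 35.8 to 39.4 CPM in the livers, with 3 counts in the kidneys, so it missed the 4-fold rule against liver by a little (log2 fold change 1.99). Gata4, Tbx20 and Hand2 thus shared 1 order, with heart first, liver second and kidney near 0. Mef2a, which is made in many tissues, was at 168, 172 and 165 CPM, 5.18-fold over kidney and 4.73-fold over liver. Klf15 (-1.56), Nr2f2 (-1.68) and Tbx2 (-1.06) were lower in heart, and Foxp1 (0.02) and Tbx3 (-0.39) did not pass.

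Splicing factors of muscle formed a smaller, split group. Of 15 tested genes 10 were higher and 6 were 4-fold over both organs, while 4 were lower. Rbm20, which controls the splicing of titin, was at 270, 293 and 310 CPM in the hearts, 32.5-fold over kidney and 56.9-fold over liver. Rbm24 was at 172, 177 and 186 CPM in the hearts, at most 0.640 CPM in the kidneys and 0 counts in the livers. The epithelial splicing factors ran the other way: Esrp1 had no count in any heart and 13.3 to 18.99 CPM in the kidneys, and Esrp2 was at 0.274 to 0.394 CPM in the hearts against 26.2 to 30.4 CPM in the kidneys and 125 to 141 CPM in the livers. Ptbp1, a repressor of muscle and nerve exons, was lower than in both organs by less, 2.36-fold below kidney (log2 difference from the mean -1.41).

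Oxidative phosphorylation genes took the largest part of the heart's messages among the lists, 12.8, 12.1 and 11.5% of TPM in the 3 hearts, against 5.80 to 6.24% in the kidneys and 2.05 to 2.22% in the livers. Of 74 tested genes 72 were higher in heart and 2 lower, but the differences were even and small, with a median of 1.54, and only 4 genes (Cox6a2, Cox7a1, Cox8b and Atp5g1) were 4-fold over both organs, where 6.93% of all genes were. Atp5b, the catalytic beta subunit of ATP synthase, was at 5466, 5408 and 4718 CPM in the hearts, 2033 to 2221 CPM in the kidneys and 1835 to 1927 CPM in the livers. The organs did not overlap, at 2.45-fold and 2.73-fold. Cox4i1, a core-associated subunit of cytochrome c oxidase, was 2.103-fold over kidney and 4.63-fold over liver. Both lower genes, Cox6a1 (-1.51) and Cox8a (-1.08), have a muscle partner among the 4 large rises.

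The tricarboxylic acid cycle showed the same shape. Of 24 genes 21 were higher, 4 of them over both organs, with a median of 1.37 and a TPM share of 1.88 to 2.25% in the hearts, 0.840 to 0.977% in the kidneys and 0.539 to 0.585% in the livers. Citrate synthase (Cs), the entry step, was at 1475, 1565 and 1230 CPM in the hearts, 6.26-fold over kidney and 6.07-fold over liver. Aco1 (-2.63) and Idh1 (-3.14), the cytosolic aconitase and isocitrate dehydrogenase, and Suclg2 (-0.96), the GTP-forming subunit of succinate-CoA ligase, were the 3 lower members. Among the genes listed as regulators of energy metabolism, Esrra, a nuclear receptor, was at 146 to 155 CPM in the hearts, 1.498-fold over kidney and 4.53-fold over liver, and Ppargc1a, a coactivator of mitochondrial genes, was at 121, 133 and 109 CPM in the hearts and 104 to 113 CPM in the kidneys, which was not a detectable difference (log2 fold change 0.14, adjusted p = 0.411). Only heart replicate 3 overlapped the kidneys for Ppargc1a, and a test of it against kidney without that library is not given. Ppara, the fatty acid receptor, was at 92.0, 107 and 93.2 CPM in the hearts and 495 to 595 CPM in the livers, so it was lower than the mean (-1.16). Over the 21 regulators tested 10 were higher (37.9% of all genes were), 5 lower (37.1%) and 6 not called, with a median of 0.30. Against kidney alone 7 were higher and 3 lower. In the test against 2-fold 6 were higher and 3 lower than the mean, so little is read from the group.

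**Figure D3:**
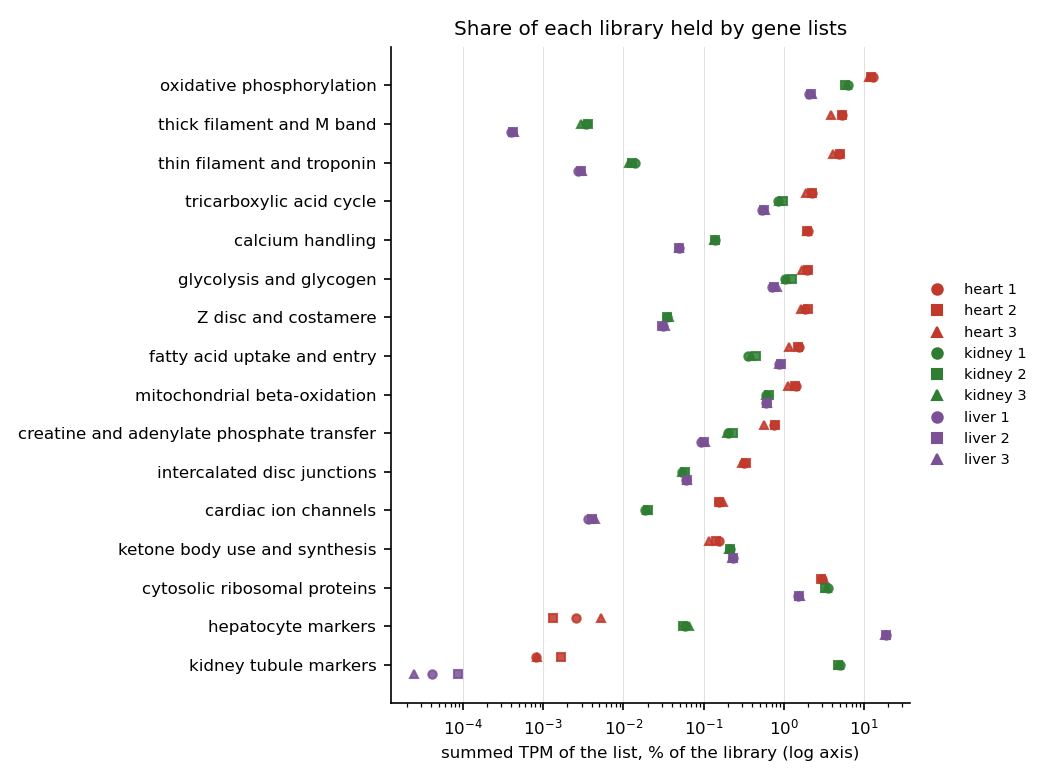
Summed TPM of 16 gene lists as a percentage of each library (log axis), with 1 mark for each of the 3 heart, 3 kidney and 3 liver libraries. Oxidative phosphorylation holds 11.5 to 12.8% of heart TPM, the filament lists lie orders of magnitude above kidney and liver, and hepatocyte and tubule markers lie far below their own organs in heart.

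Fatty acid genes are given by step. At the vessel wall and membrane, Lpl, which frees fatty acids from lipoproteins, was at 4764, 4346 and 3219 CPM in the hearts, 335 to 473 CPM in the kidneys and 248 to 447 CPM in the livers. Cd36, a fatty acid translocase, was at 1725, 1568 and 1099 CPM, 5.47-fold over kidney and 23.8-fold over liver. In the cytosol, Fabp3 was at 2226, 2156 and 1470 CPM in the hearts, 35.1-fold over kidney, with no count in the livers, where Fabp1 has its place (log2 difference of Fabp1 -6.18). All 3 genes were lowest in heart replicate 3 among the hearts, without reaching another organ. Within mitochondria 16 of 22 beta-oxidation genes were higher and 3 lower, with a median of 0.70 (0.31 against liver alone). Hadhb, a subunit of the trifunctional enzyme, was the only one 4-fold over both organs (922, 874 and 654 CPM in the hearts, 7.21-fold over kidney and 4.16-fold over liver). Acadvl, which starts the cycle on very long chains, was 4.33-fold over kidney but only 1.35-fold over liver. Acad10 (-3.43) was 4-fold lower than in both organs. Of the 28 genes of uptake and entry 18 were higher and 9 lower, the latter including the liver forms Slc27a2 (-9.78), Slc27a5 (-6.70) and Cpt1a (-2.70). Their median was 0.94, and 0.16 against liver alone, where 13 were higher and 12 lower. As a list they thus did not stand clearly apart from the beta-oxidation genes.

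Of the ketone body genes, Oxct1 encodes the enzyme that commits ketone bodies to oxidation, and liver is known to lack it. It was at 1479, 1306 and 961 CPM in the hearts, 1180, 1121 and 1115 CPM in the kidneys and 6.80, 7.11 and 6.12 CPM in the livers. Heart and kidney overlapped and did not differ detectably (log2 fold change 0.13 ± 0.15 SE, adjusted p = 0.452, edgeR's quasi-likelihood test), and both were far above liver, heart by 182-fold. Slc16a1, a transporter of lactate and ketone bodies, was at 375, 381 and 271 CPM in the hearts, 6.28-fold over kidney and 2.49-fold over liver. Bdh1, which interconverts the 2 main ketone bodies, was at 23.9, 31.7 and 12.2 CPM in the hearts, below kidney (147 to 157 CPM) and liver (428 to 517 CPM). In all, 2 of 10 genes were higher (Oxct1 and Slc16a1), 6 lower and 2 not called, with a median of -2.58, and 4 were 4-fold lower than both organs. The list held 0.116 to 0.154% of heart TPM, 0.204 to 0.215% of kidney TPM and 0.224 to 0.233% of liver TPM.

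Glycolysis and glycogen genes were divided, in part by isoform. Of 47 tested genes 28 were higher (37.9% of all genes were) and 14 lower (37.1%). By 4-fold, 12 were over both organs (6.93%) and 7 below both (6.31%). Slc2a4, the insulin-responsive glucose transporter, was at 427, 431 and 362 CPM in the hearts, 31.5 to 34.7 CPM in the kidneys and at most 0.178 CPM in the livers. Hk2, the muscle hexokinase, was at 415, 408 and 305 CPM, 183-fold over kidney and 74.3-fold over liver. The hearts stood clear of both organs for these genes. Eno3, the muscle enolase, was at 1548, 1563 and 1120 CPM in the hearts against at most 3.78 CPM elsewhere, and Pygm, the muscle glycogen phosphorylase, was at 1258, 1361 and 1016 CPM, 95.7-fold over kidney and 546-fold over liver. Lower members included the liver and kidney forms Slc2a2 (-10.37), Pklr (-12.28), Gys2 (-6.23) and Pygl (-3.52). Not every gene followed this division. Aldoc (-5.96) and Slc2a1 (-0.87) were lower too, and Pfkl, the partner of the muscle form Pfkm, was higher (1.10).

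For 27 pairs of related genes the share of the first gene was computed from TPM. Cox6a2, the muscle form of a cytochrome c oxidase subunit, made up 89.1, 89.2 and 87.0% of its pair with Cox6a1 in the hearts and 0.316 to 0.459% in the kidneys. Cox8b gave 88.8, 87.7 and 86.5% against Cox8a, and Cox7a1 82.6, 82.6 and 83.1% against Cox7a2. Cox7a1 was less restricted than the other 2, with 12.4 to 15.8% in the kidneys and 2.19 to 3.37% in the livers. Slc25a4, the muscle ADP/ATP carrier, held 94.1 to 94.4% of its pair with Slc25a5 in the hearts, 32.04 to 32.7% in the kidneys and 1.46 to 2.26% in the livers. Cpt1b, the muscle gate for fatty acids into mitochondria, held 93.4, 92.5 and 89.8% against Cpt1a in the hearts and 12.0 to 15.5% in the kidneys. Kidney was therefore between heart and liver for these 3 pairs.

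Other pairs did not follow the organ so closely. Ldhb, the lactate dehydrogenase subunit of oxidative tissues, held 74.1, 73.7 and 71.3% of its pair with Ldha in the hearts and slightly more, 76.0 to 77.8%, in the kidneys, against 0.326 to 0.655% in the livers. In CPM, Ldhb was at 1295, 1289 and 1000 in the hearts and 784 to 854 in the kidneys, 1.45-fold apart. Rpl3l, a muscle form of ribosomal protein L3, held 53.0, 50.3 and 38.2% against Rpl3 in the hearts and at most 0.347% elsewhere. Creatine kinase did follow the organ, with Ckm at 97.1, 97.2 and 95.9% of its pair with Ckb in the hearts and at 0 to 3.64% elsewhere.

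**Figure D4:**
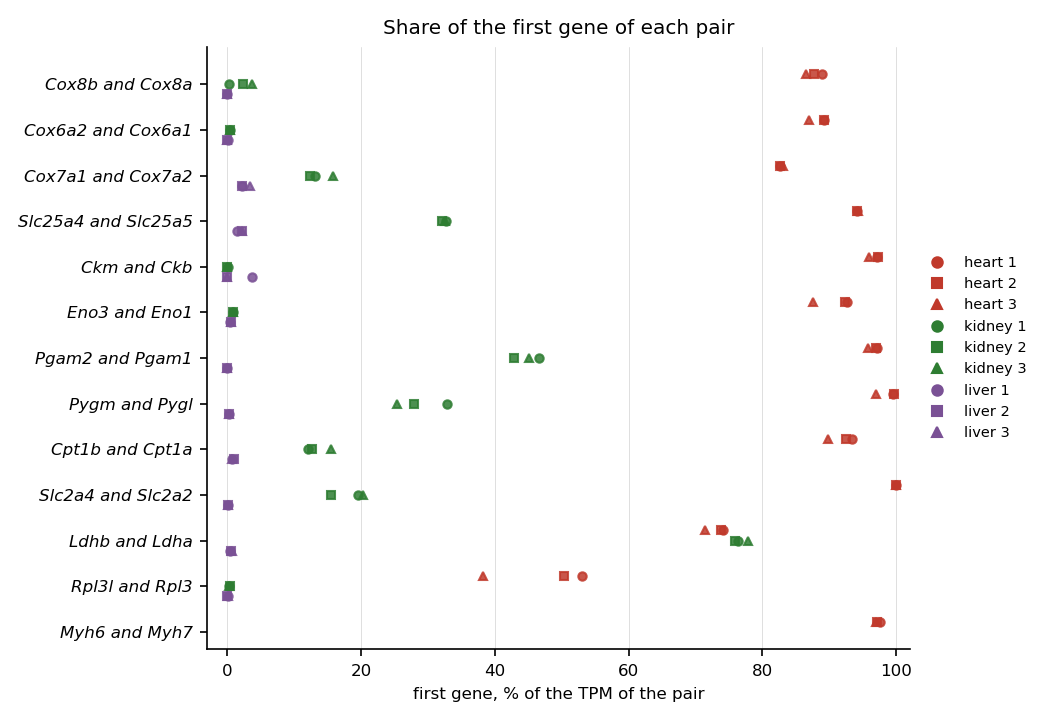
Share of the first gene in the summed TPM of 13 pairs of related genes, with 1 mark for each library and a percentage axis from 0 to 100; Myh6 and Myh7 are shown for heart only. Most first genes hold nearly all of the pair in heart and little in liver. Kidney is in between for Cox7a1, Slc25a4, Cpt1b, Pgam2, Pygm and Slc2a4, and Ldhb is as high in kidney as in heart.

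The creatine genes named here ran both ways. Ckm was at 2486, 2595 and 1722 CPM in the hearts, with 2 counts in the kidneys and 7 in the livers, and Ckmt2, the mitochondrial creatine kinase of muscle, was at 1631, 1629 and 1118 CPM with no count in any other library. Heart replicate 3 was the lowest heart for both. Gatm, the first enzyme of creatine synthesis, was at 9.37, 7.59 and 6.97 CPM in the hearts, 810 to 974.6 CPM in the kidneys and 15.5 to 19.5 CPM in the livers, and Gamt, the second, was also lower (-3.33). Over the whole list, which covers creatine and adenylate phosphate transfer, 7 of 15 genes were higher (37.9% of all genes were) and 7 lower (37.1%). The median was -1.25, and against kidney alone 5 were higher and 10 lower. These counts are not a split of creatine use against synthesis. Oxygen supply was led by myoglobin (Mb), at 8644, 8705 and 6875 CPM in the hearts with 5 counts in the kidneys and 2 in the livers. Cygb, the related cytoglobin, was 9.01-fold over kidney and 8.88-fold over liver, while catalase (Cat, -3.21) and Gpx1 (-3.62), which clear peroxide, were lower in heart.

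Hormone and stress genes of the heart included Nppb, at 131, 170 and 144 CPM in the hearts and at 0 counts in all 6 other libraries, at least 3517-fold over kidney and 2368-fold over liver. Ankrd1, a strain-responsive protein of the sarcomere, was at 347, 425 and 544 CPM, 495-fold over kidney and 1803-fold over liver. Both were present in every heart. Nppb (mm9, chr4:147359898-147361314) neighbours Nppa (chr4:147374855-147376176), which is described with heart replicate 3. Of 22 tested genes of this list 14 were higher, 3 lower and 5 not called. A further 4 genes were at 0 counts in every kidney and liver. Dhrs7c, a dehydrogenase-like protein of the sarcoplasmic reticulum, was at 126, 120 and 144 CPM, and Lrrc10, a leucine-rich repeat protein of heart muscle, was at 92.8, 110 and 96.3 CPM. Trim54, a ring finger protein of the sarcomere, was at 96.7, 91.6 and 79.2 CPM, and Eef1a2, the muscle and nerve form of translation elongation factor 1 alpha, was at 1327, 1429 and 1072 CPM.

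Growth genes of early life were still present at 7 weeks. Of 14 tested genes 10 were higher in heart, with a median of 2.37 (2.11 with the bound). Igf2, the fetal growth factor, was at 144, 134 and 371 CPM in the hearts, 1.96 to 3.15 CPM in the kidneys and 0.513 to 1.34 CPM in the livers. The RNA H19 lies in the same imprinted region (mm9, chr7:149761437-149764051, with Igf2 at chr7:149836673-149846940). It was at 49.6, 40.0 and 194 CPM in the hearts, at most 0.724 CPM in the kidneys and 2.95 to 9.31 CPM in the livers. The highest heart was replicate 3 for both genes, and the other 2 hearts were still above every kidney and liver.

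Markers of several cell types other than heart muscle were mostly higher in heart than the mean. All 11 smooth muscle and pericyte genes, 10 of 11 fibroblast genes, 14 of 16 endothelial genes and 10 of 11 macrophage genes were higher (37.9% of all genes were). The medians were 3.16, 2.62, 1.57 and 1.31. Without heart replicate 3 the smooth muscle count was 9 and the other 3 counts were the same. Against kidney alone 7 smooth muscle genes were higher and 0 lower, 9 fibroblast genes higher and 1 lower, and 12 endothelial genes higher and 4 lower. By 4-fold over both organs the numbers were 4, 6 and 4 (6.93% of all genes were). For macrophages 10 of the 11 genes were higher than in kidney, but 3 were higher and 5 lower than in liver, and none was 4-fold over both organs. The median against liver was -0.16 and turned to 0.41 with total-count scaling (6 higher, 1 lower) and 0.06 with upper-quartile scaling (4 higher, 1 lower). Their summed level was 604 to 695 CPM in the hearts, 126 to 135 CPM in the kidneys and 644 to 756 CPM in the livers, so hearts and livers overlapped. Fibroblast genes summed to 0.310, 0.327 and 0.525% of TPM in the 3 hearts, 0.0727 to 0.103% in the kidneys and 0.0239 to 0.0276% in the livers. Endothelial genes summed to 0.306 to 0.341, 0.150 to 0.172 and 0.0407 to 0.0448%. Pecam1, a junction protein of endothelium, was at 271, 258 and 238 CPM in the hearts, 2.83-fold over kidney and 6.68-fold over liver. Stab2 (-6.69), a scavenger receptor of liver sinusoids, and Plvap (-1.46), of fenestrated vessels, were the lower endothelial genes, though Plvap lost its call when any library but heart replicate 3 was left out, and Clec4f (-5.91), of liver macrophages, the lower macrophage gene. The part of these cell types in the differences of other genes was not tested.

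Of 7 tested red cell genes 6 were higher in heart (37.9% of all genes were), while lymphoid genes were near the floor. Beta-s, an adult beta globin, was at 3233, 3511 and 4120 CPM in the hearts, 475 to 943 CPM in the kidneys and 187 to 298 CPM in the livers, and the alpha globins Hba-a1 and Hba-a2, whose values were identical, were 9.68-fold over kidney and 8.73-fold over liver. The globins are near-identical copies, so the split among them is uncertain, and the amount of blood in each sample was not measured. Of 8 tested lymphocyte and thymus genes 3 were lower (37.1% of all genes were) and 5 were not called. None was higher by edgeR, DESeq2 or limma-voom, or at an unadjusted p under 0.05 in edgeR. The 12 listed genes summed to 2.77 to 4.50 CPM in the hearts and at most 10.8 CPM elsewhere, so no direction of the group is read. In the heart libraries, skeletal muscle markers apart from Ckm were low: Myh1, Myh2, Myh4 and Myod1 did not reach the expression filter, and Atp2a1, the pump of fast skeletal muscle, was at 0.822, 1.01 and 5.18 CPM.

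Genes lower in heart than in both organs included enzymes that kidney and liver share. Fbp1, which completes glucose synthesis, was at 0.110, 0.337 and 0.408 CPM in the hearts, 2160-fold below kidney (log2 difference from the mean -11.54 ± 0.27 SE, adjusted p = 2.28e-11, edgeR's quasi-likelihood test). Its 3 heart values lay far below all other libraries. Cyp2j5, a cytochrome that oxidises arachidonic acid, was at 0.110 to 0.281 CPM in the hearts and 4302-fold higher in liver, the nearer organ. Ugt3a1, a glycosyltransferase, and Hsd3b2, a steroid dehydrogenase, had no count in any heart and were at least 1149-fold and 889-fold higher in liver; Ugt3a1 shares reads with its neighbour Ugt3a2 and is less certain. All 15 hepatocyte genes were lower than the mean and 8 were lower than both organs. All 15 kidney tubule genes were lower than in kidney, but only 5 were lower than the mean, 2 of them without liver replicate 2 and 13 with DESeq2. These genes summed to at most 8.74e-05% of TPM in the livers.

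Heart replicate 3 differed from the other hearts in genes of atrium and fat. Myl7 was at 0.384, 1.07 and 1938 CPM in the 3 hearts and Myl4, the atrial essential light chain, at 1.21, 1.63 and 2100 CPM. Sln, sarcolipin of the atrial calcium pump, was at 0, 0 and 507 CPM, and Bmp10, a factor of the right atrium, at 0, 0 and 596 CPM. Nppa, atrial natriuretic peptide, was at 63.7, 130 and 7527 CPM. In each case replicate 3 was high, and the other hearts were at the level of kidney and liver or not far above, except for Nppa, which had no count in any kidney or liver. Of 12230 genes with at least 50 counts in replicate 3, 91 were at least 10-fold above both other hearts and 189 at least 4-fold. Atrial markers summed to 0.107, 0.127 and 4.12% of TPM in the 3 hearts.

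The same library held Ucp1, the uncoupling protein of brown fat, at 104 CPM against 0.0548 and 0.0562 CPM in the other hearts, and Adipoq, adiponectin, at 24.0 against 0.219 and 0.0562 CPM. The kidneys held both too, Ucp1 at 3.07, 18.0 and 25.2 CPM and Adipoq at 0.511 to 6.91 CPM, so heart replicate 3 was not alone among the 9 libraries. Adipocyte markers summed to 0.0113, 0.0124 and 0.0891% of TPM in the hearts. By TPM Myl2 made up 64.0% of its pair with Myl7 there against 99.99 and 99.98%, and Myl3 62.3% of its pair with Myl4 against 99.98 and 99.97%. These shares move with the atrial partners, whose levels are given above, and do not show how far the ventricular genes differed. In CPM replicate 3 held 0.59 of the highest other heart for Myl2 and 0.62 for Myl3. Myh6, Tnnt2 and Nkx2-5, which both chambers make, were within the range given above. How much of a chamber or of attached fat each sample held is not stated in the labels.

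Some calls against the mean rested on this library. Myl7 was higher in heart with it (log2 difference 10.43, adjusted p = 0.0110) and not without it (0.64, adjusted p = 0.320). Nppa went the other way: its spread among the hearts kept it from passing (adjusted p = 0.0601), and it passed without replicate 3 (13.88, adjusted p = 0.0139). Gpx3, a plasma peroxidase made mainly by kidney, was at 115, 131 and 889 CPM in the hearts. Its difference was 1.12 with replicate 3, which did not pass, and -0.51 without it, which did (adjusted p = 0.00722). Cidec, a lipid droplet protein, turned from 1.99 to -5.84 (adjusted p = 0.0383). Among 302 named genes that passed, 5 lost their call without replicate 3: Tagln, Krt19, Upk1b, Myl7 and Tfam. Not all of these losses were particular to it. Krt19 also lost its call without any 1 kidney or liver library, Tagln without liver replicate 1 or 3 and Tfam without heart replicate 2. Beside Gpx3 and Cidec, 6 named genes did not pass in the main fit but passed without it: Nppa, Car3, Clu, Ldha, Psmb5 and Slc34a1. Most of these also passed under other settings that kept replicate 3. Ldha and Slc34a1 passed with DESeq2, limma-voom or the replicate block, Car3 with limma-voom, Nppa with the block and Psmb5 with total-count scaling. Gpx3 passed as higher without heart replicate 1 (1.55) or 2 (1.53). The 4-fold sets changed as well: 996 of the 1052 genes higher than both organs and 915 of the 958 lower than both stayed.

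**Figure D5:**
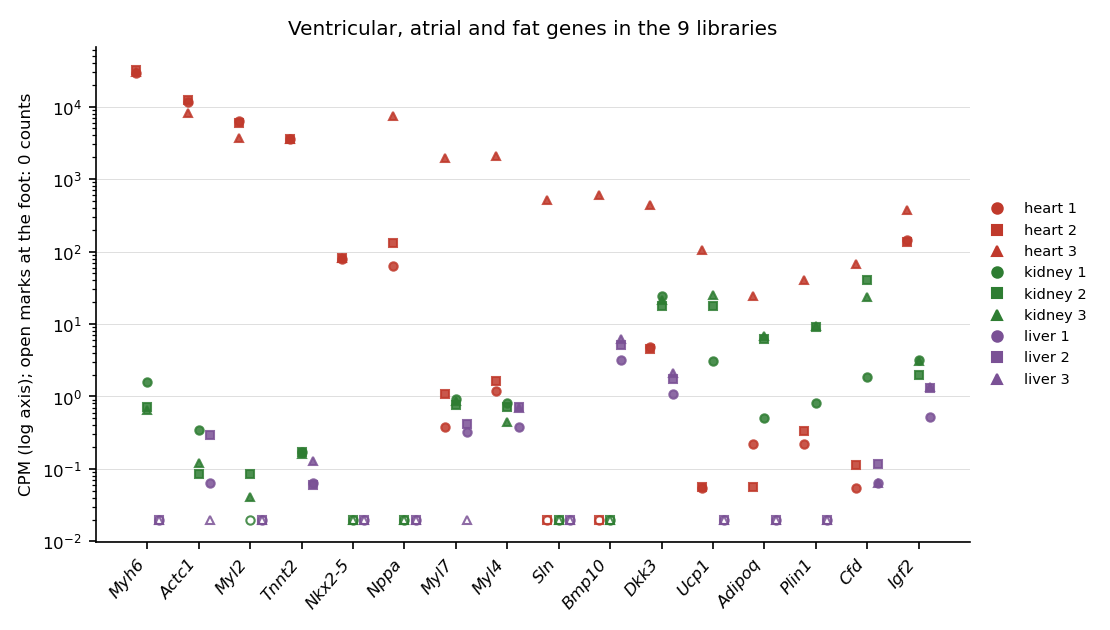
CPM (log axis) of 16 genes in the 3 heart, 3 kidney and 3 liver libraries; open marks at the foot stand for 0 counts. Myh6, Tnnt2 and Nkx2-5 are alike in the 3 hearts, while Actc1 and Myl2 are lowest in heart replicate 3. Among the hearts, replicate 3 alone is high for Myl7 (1938 CPM), Sln (507 CPM), Bmp10 (596 CPM) and Ucp1 (104 CPM).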

How the data were processed

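Messenger RNA was sequenced from NEB stranded libraries of RNA with an integrity number above 4, extracted with Trizol-type reagent and RNeasy columns, per the labels' protocols. The submitters' processing notes name HISAT2 2.1.0 and featureCounts 1.5.0, beside SAMtools and bcl2fastq. Per the file headers, read pairs were counted on exons of mm9 genes with strandedness setting 2 and minimum mapping quality 2, and reads that fit several genes or places were split as fractions. Each deposited value is thus an estimated count, often not whole. Genes with fractional values held 46.2 to 60.1% of a library's count. Rounding to whole numbers changed a total by at most 0.000664%.

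Genes were kept with filterByExpr, scaled with TMM and tested in 1 fit of the 9 libraries with edgeR 4.0.16 (quasi-likelihood, robust, R 4.3.3). Adjusted p-values come from that fit, with Benjamini-Hochberg adjustment over 15171 genes. Log2 differences are heart minus the mean of the kidney and liver log2 levels unless an organ is named. A fold over a group at 0 counts uses 3 counts over the group as a floor, and one over 1 to 3 counts is given with an exact Poisson 95% interval. Intervals and floors cover counting error only. Gene coordinates are from the files (mm9), promoters from RefSeq GRCm38.p6. The fit step was tested on simulated counts.

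Members and gene lists were chosen with earlier results of these data known. Named were the 25 most abundant (TPM) and the 25 most restricted genes higher than both organs, the 15 largest falls, up to 6 abundant members a list with those against its direction, isoform pairs, and up to 4 marker genes a list that were high in heart replicate 3. Acadvl, Adipoq, Adrb1, Cygb, Fbxo32, Foxp1, Gamt, Gatm, Hand2, Mki67, Neb, Ryr2, Slc8a1, Tbx20 and all remarks on single list values beyond these were chosen after their values were seen. DESeq2 1.42.0, limma-voom (limma 3.58.1), 3 other scalings, other filters and thresholds, the replicate number as a block and leaving out each library were the alternatives. The 9 ketogenic libraries were not used here, and some genes that the naming rule picks are not reported here.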

Additional observations from a re-analysis of the deposited data

How the results depend on the processing

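Under every alternative run, lower calls outnumbered higher ones against kidney and higher calls outnumbered lower ones against liver. Against the mean the calls were split nearly evenly, 50.6% higher as reported, and lower calls outnumbered higher ones with DESeq2 (49.4% higher), limma-voom (49.0%) and without heart replicate 3 (49.9%). Among genes with whole values alone the 3 counts of calls fell to 4951, 4870 and 5158 of a smaller set, and 589 and 383 genes were higher and lower than both organs. Tested against a 2-fold difference, 5258, 4920 and 6409 genes passed. A log2 threshold of 1 in place of 2 gave 2092 and 1718 genes higher and lower than both organs, and 3 gave 616 and 620. Leaving out 1 library gave 10884 to 11434 calls against the mean, 10355 to 11344 against kidney, 11388 to 11789 against liver, and 1041 to 1113 and 930 to 1051 genes higher and lower than both. Leaving out 1 heart moved Cidec between -5.84 and 2.57 and Gpx3 between -0.51 and 1.55, and both turned negative without replicate 3; limma-voom also gave Cidec below 0 (-1.70). Of 334 named genes, 302 passed, 12 of these lost the call without some library and 58 in the test against 2-fold. The replicate number as a block gave 11306, 10950 and 11710 calls and 1039 and 951 genes. Same-numbered heart and kidney libraries correlated at 0.147, 0.081 and 0.154, above all different-numbered ones (-0.147 to 0.078). No other same-numbered pair exceeded 0.08. Whether equal numbers mark 1 mouse was thus not settled, and the main fit did not use the numbers. Without heart replicate 3, lower genes numbered 2 among ion channels, 2 in adrenergic and muscarinic signalling (also 2 without liver replicate 1), 3 among atrial markers, 3 among adipocyte markers and 2 among growth genes of early life, and higher proliferation genes numbered 5. Lower endothelial genes numbered 1 without any library but heart replicate 3, lower endocardial genes 1 without heart replicate 1 or 2, and lower conduction genes 2 without liver replicate 2. In the test against 2-fold 13 tricarboxylic acid cycle and 8 beta-oxidation genes were higher. Total-count scaling moved the median of all genes by -0.38 against kidney and 0.57 against liver, and upper-quartile scaling by 0.22 against liver. With 3 libraries an organ the spread is pooled over organs, fractional counts leave families of similar genes uncertain, and depth limits folds over genes at 0 counts to lower bounds.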

Other observations

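Extracellular matrix genes were mostly higher in heart. Of 38 tested genes 33 were higher (37.9% of all genes were), 15 of them 4-fold over both organs, and 4 were lower, with a median log2 difference of 2.38. Col1a1, a chain of fibrillar collagen, was at 571, 667 and 1056 CPM in the hearts, 2.29-fold over kidney and 12.1-fold over liver. Postn, a matrix protein of valves and fibroblasts, was at 106, 120 and 148 CPM, 9.02-fold over kidney and 4.36-fold over liver. Heart replicate 3 was the highest heart for both. Fibronectin (Fn1, -1.94), which liver secretes into plasma, and Lama1 (-7.72), a laminin chain of tubule basement membranes, were among the lower members.

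Protein turnover genes fell into 2 kinds. The 6 tested proteasome subunits did not pass (log2 differences from -0.04 to 0.15), though 4 of them passed with total-count or upper-quartile scaling. Against single organs 4 were higher than in kidney (log2 fold changes from 0.27 for Psmb1 to 0.66 for Psmd1) and 3 were lower than in liver (from -0.19 for Psma1 to -0.47 for Psmc1), but with total-count scaling 1 was higher and 2 lower than in kidney and 5 higher than in liver, and with upper-quartile scaling 1 was higher and 1 lower than in liver. In contrast, the 12 muscle ubiquitin ligase genes were all higher and all 4-fold over both organs. Trim63, which marks muscle proteins for breakdown, was at 215, 230 and 199 CPM in the hearts, 4.92 to 7.32 CPM in the kidneys and 0 counts in the livers. Fbxo32, the other well-known ligase of muscle wasting, was at 208, 213 and 198 CPM, 27.7-fold over kidney and 25.4-fold over liver. Cytosolic ribosomal protein genes differed little, with a median of 0.19 over 46 genes, of which 23 were higher, 3 lower and 20 not called, and 36 were higher with upper-quartile scaling.

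Proliferation genes were mostly not higher in heart. Of 33 tested 3 were higher (37.9% of all genes were), 12 lower (37.1%) and 18 not called, with a median of -0.39. The share of lower genes was thus near that of all genes. Lower genes numbered 6 at an adjusted p under 0.01 and 3 in the test against 2-fold, and 5 genes were higher without heart replicate 3. Mki67, which marks cycling cells, was at 58.2, 63.7 and 23.2 CPM in the hearts, 59.8, 62.9 and 40.6 CPM in the kidneys and 62.1, 95.5 and 60.0 CPM in the livers, so replicate 3 was the lowest library in each of the 3 organs. Dbh, which makes noradrenaline in sympathetic nerves, was among the heart genes of the nerve list (log2 difference 10.52). Its level was low: all 10 genes of that list together summed to 18.1, 19.4 and 45.1 CPM in the hearts, with replicate 3 the highest. Cdkn1a, a cell cycle inhibitor, was at 32, 36.4 and 26.0 CPM in the hearts, 4.48-fold over kidney and 2.31-fold over liver.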
